A study of Mus musculus with 6 samples.

Results

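The S100 proteins and annexins examined here are 10 genes of the 2 families of calcium-responsive proteins, S100a8, S100a9, S100a4, S100a6, S100a10, S100a11, Anxa1, Anxa2, Anxa3 and Anxa5, out of 18193 genes named on the array. They were selected by gene symbol, taking every probe set annotated to 1 of these symbols. Of the 10 genes, 9 had a probe set of their own, 14 probe sets in all, and each of these 9 genes passed the filter on dim genes. The only probe set that names S100a11 carries 3 symbols, S100a11 with the annotated genes S100a11-ps and Gm12854, so no value was assigned to S100a11. The arrays hold RNA of peripheral blood neutrophils from 3 wild-type mice and 3 phd3 null mice, all on a C57 background. After negative magnetic selection from individual mice, the cells of both genotypes were held for 4 h in hypoxia at 3% oxygen, and no array of cells at normal oxygen was analysed here. The phd3 gene, now named Egln3, encodes a prolyl hydroxylase that uses oxygen to mark hypoxia-inducible factor (HIF) for degradation. The design of the allele and the age of the mice are not given in the sources used here.

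S100 proteins are small proteins that work as pairs, most of them as calcium sensors, and most of their genes lie in 1 cluster. S100A8 and S100A9 form calprotectin, a major part of the cytosolic protein of neutrophils, which binds zinc and manganese and is released as an alarm signal at sites of inflammation. Annexins bind phospholipid membranes when calcium rises. Annexin A1 is stored in neutrophils and limits their recruitment through formyl peptide receptors, annexin A2 forms a complex with S100A10 at the cell surface, and annexin A5 binds phosphatidylserine exposed on dying cells.

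The sequence just before the start of 4 members is shown, since S100a8 and S100a9 had nearly the same pattern over the arrays and Anxa2 and Anxa5 were the members whose level differed among replicate numbers. Each line gives the 250 bases before the annotated start, 5′ to 3′ on the gene's own strand, from RefSeq, assembly GRCm38.p6. They lie at chr3:90668821-90669070 (plus strand) for S100a8, chr3:90695722-90695971 (minus strand) for S100a9, chr9:69453433-69453682 (plus strand) for Anxa2 and chr3:36475888-36476137 (minus strand) for Anxa5. Capitals mark the motif matches described after them.
S100a8: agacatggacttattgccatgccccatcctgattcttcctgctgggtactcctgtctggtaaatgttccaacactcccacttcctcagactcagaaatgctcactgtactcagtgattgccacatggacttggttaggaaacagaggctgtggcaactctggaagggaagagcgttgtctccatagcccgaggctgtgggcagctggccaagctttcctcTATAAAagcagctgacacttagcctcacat
S100a9: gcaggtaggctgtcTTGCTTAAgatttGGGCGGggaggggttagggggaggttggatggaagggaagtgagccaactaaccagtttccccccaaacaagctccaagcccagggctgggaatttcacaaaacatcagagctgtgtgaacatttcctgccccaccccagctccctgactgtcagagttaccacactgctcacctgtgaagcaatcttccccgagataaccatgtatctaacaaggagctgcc
Anxa2: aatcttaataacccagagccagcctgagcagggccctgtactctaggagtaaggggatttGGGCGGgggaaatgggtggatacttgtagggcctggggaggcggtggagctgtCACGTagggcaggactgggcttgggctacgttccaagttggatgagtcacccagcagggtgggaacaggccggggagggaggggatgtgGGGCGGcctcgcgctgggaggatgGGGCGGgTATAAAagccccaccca
Anxa5: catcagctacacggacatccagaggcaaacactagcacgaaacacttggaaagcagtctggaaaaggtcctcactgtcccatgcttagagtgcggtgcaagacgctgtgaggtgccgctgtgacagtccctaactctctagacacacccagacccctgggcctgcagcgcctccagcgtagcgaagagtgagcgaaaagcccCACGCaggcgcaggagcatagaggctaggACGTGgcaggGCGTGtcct

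The motifs were searched on both strands of the table's 300 base windows, which also take in 50 bases after the start. They were the core of the HIF site (ACGTG or GCGTG), a site for C/EBP factors of granulocytes (TTGCNNAA), the TATA box (TATAAA) and the GC box (GGGCGG). Of 32851 windows in the table, 43.8% held the HIF core, 10.8% the C/EBP letters, 13.6% TATAAA and 35.7% GGGCGG. S100a8 held TATAAA at position -30 and no match to the others. S100a9 held the C/EBP letters at -236, GGGCGG at -223 and TATAAA at position 1, just after its annotated start. Neither of these neighbouring genes held the HIF core in its window. Anxa5 held 3 matches to the HIF core and none of the others. Anxa2 held 2 matches to the HIF core, 3 GC boxes and TATAAA at -17. One of its HIF core matches, at position 43, lies after the start and is not printed. The table held 8 of the 10 members, and S100a10 and Anxa3 were not among them. Letters that match are a description of the sequence and say nothing about binding in these cells.

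The values are MAS5 signals on a linear scale, and all differences are phd3 null minus wild type on the log2(signal + 16) scale, fitted with limma and adjusted by the Benjamini-Hochberg method over 10960 genes. Replicates are numbered 1 to 3 in both genotypes, and a pair means the 2 arrays with the same number. Both arrays of replicate 3 stood apart. The median correlation with the other 5 arrays was 0.739 for phd3 null sample 3 and 0.788 for wild-type sample 3, while the remaining 4 arrays had 0.838 to 0.866. Egln3 was lower on every phd3 null array, at a mean of 63.4 ± 30.1 against 1383 ± 931 (SD, n = 3 each). Of 9 neutrophil markers, 7 were named on the array, and their summed signal ran from 4534 to 10817 in phd3 null and from 6272 to 8417 in wild type. Genes of other cells were also present. Summed signal of 6 monocyte markers, Csf1r and F13a1 the brightest by mean, was 18524 to 22356 on replicates 1 and 2, and 5962 and 6713 on replicate 3. Not all of them followed the sum. In wild type Ccr2 gave 284.2, 997.4 and 385.4 and Cx3cr1 gave 297.8, 764.2 and 361.1 for replicates 1 to 3. Both were lowest there on replicate 1, but in phd3 null on replicate 3. Summed signal of 3 B cell markers went the other way from the monocyte sum, at 115 to 378 on replicates 1 and 2. It was 2603 and 1979 on replicate 3. In all 3 pairs the phd3 null array had less summed signal of 5 NK cell markers, at 369.9, 2473 and 1930.1 against 1223, 5419.8 and 2774 in wild type. Of these 5 genes, 4 were lower in every pair, where 13.1% of all genes were. At an adjusted p under 0.05 in limma 0 of 5 passed, with or without the replicate number in the fit. With the number in the fit, 4 of 5 had an unadjusted p under 0.05, where 5.62% of all genes did. Without it 0 of 5 did, where 1.74% of all genes did. Summed signal of 3 erythroid markers was 750.1, 3814 and 6831 in phd3 null and 2610.2, 5978 and 4778 in wild type. Alas2 was the brightest of these 3 on every array. Summed signal of 4 T cell markers ran from 97.6 to 482.5 in phd3 null and from 57.1 to 412.3 in wild type. S100a8, S100a9, S100a4, S100a6, S100a10 and several annexins are also made by monocytes. The part of other cells in the results given here was not tested. In such bulk samples fewer cells of a type and less RNA per cell cannot be told apart.

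No difference between phd3 null and wild-type arrays beyond the spread between mice was found for any of the 9 measured members. The fit without a block called no gene at all. Egln3 itself, at a difference of -3.85, had a limma adjusted p of 0.9996 in it, and 0.0014 with the replicate number as a block. Not passing therefore does not show that levels were equal. In limma 0 of 9 passed at an adjusted p under 0.05, where 0% of all genes did, and 0 of 9 had an unadjusted p under 0.05, where 1.74% of all genes did. With the replicate number as a block these counts were again 0 of 9, where 0.0182% and 5.62% of all genes passed. The median difference of the 9 was -0.19 against -0.01 over all genes tested. By the mean, 6 of 9 were lower in phd3 null, where 50.6% of all genes were. The differences ran from -0.46 for S100a9 to 0.10 for Anxa2. In every one of the 9 the signals of the groups overlapped, where 6.92% of all genes had groups that did not (3.9% higher and 3.02% lower in phd3 null).

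**Figure D1:**
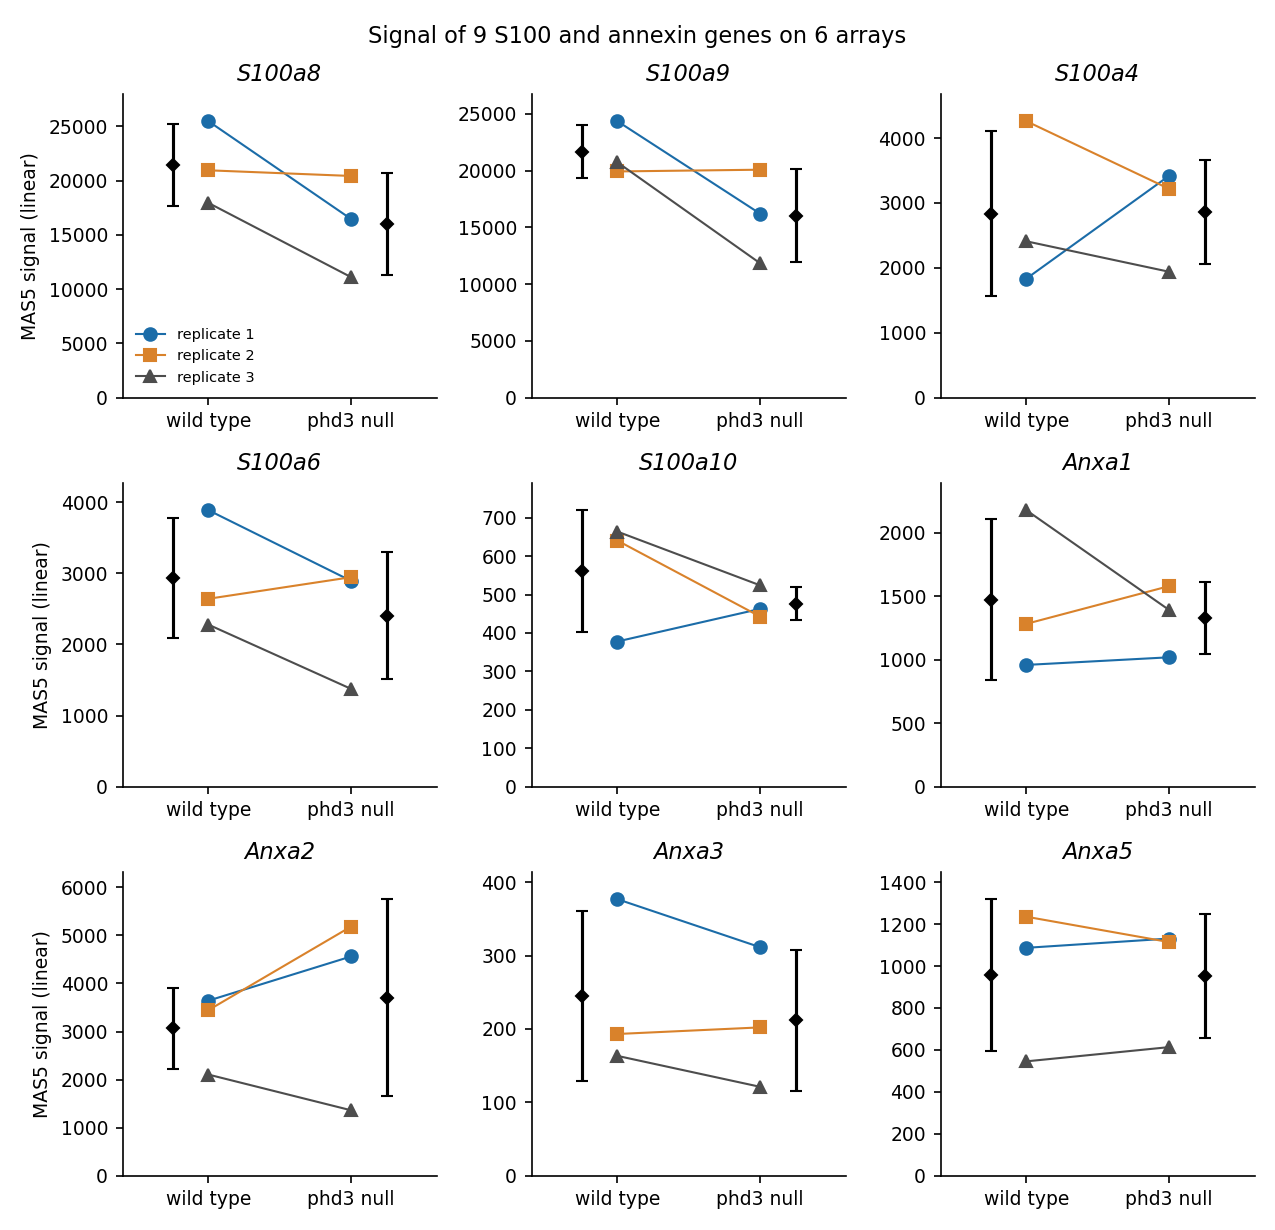
MAS5 signal (linear axis from 0) of the 9 measured members on the wild-type and phd3 null arrays, with 1 line per same-numbered pair and black diamonds for the group mean ± SD (n = 3). The groups overlap for every gene, and for Anxa2 and Anxa5 both arrays of replicate 3 lie lowest.

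S100a8 and S100a9, the calprotectin subunits, had the most negative differences among the members, and neither passed. In the order of replicates 1 to 3, which all lists of values follow, S100a8 signal was 16458, 20429 and 11103 in phd3 null and 25479.7, 20951 and 17949 in wild type. Phd3 null sample 2 lay above wild-type sample 3, and the group means were 15996 ± 4680.0 and 21459.9 ± 3791 (SD, n = 3). The difference was -0.45 (SE 0.41, 95% interval -1.38 to 0.48, limma adjusted p = 0.9996). S100a9 signal was 16214, 20088 and 11844 in phd3 null samples and 24367, 19936 and 20746 in wild-type samples. Its means were 16049 ± 4125 and 21683 ± 2359 (SD, n = 3), and phd3 null sample 2 exceeded wild-type sample 2. The difference was -0.46 (SE 0.40, 95% interval -1.36 to 0.43, limma adjusted p = 0.9996).

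Within pairs the 2 subunits moved alike. S100a8 differed by -0.63, -0.04 and -0.69 in pairs 1 to 3, and S100a9 by -0.59, 0.01 and -0.81. Lower signal in pairs 1 and 3 and near equality in pair 2 was thus common to both. With the replicate number as a block the intervals narrowed to -1.03 to 0.12 for S100a8 and -1.04 to 0.12 for S100a9, and limma's adjusted p was 0.888 for each. By the probe set used for each gene, S100a8 was the only member lower in all 3 pairs, which 13.1% of all genes were, and 0 of 9 were higher in all 3, which 12.6% were.

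With control probe sets left out, these are also among the brightest probe sets of the array. On 4 of the 6 arrays, those of replicates 1 and 2, the S100a8 probe set (1419394_s_at) had 0 probe sets above it and the S100a9 probe set (1448756_at) had 1. On the replicate 3 arrays, 22 (phd3 null) and 1 (wild type) probe sets were brighter than S100a8, and 17 and 0 brighter than S100a9. Array signals flatten near their upper end, and how far this affected the 2 genes was not tested. Quantile normalization gives equal ranks equal values, so it set both genes' differences to 0 in pairs 1 and 2 and left -0.86 and -0.83 in pair 3.

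The likeness of the 2 genes was measured as the root mean square difference of their mean-centred log2 values over the 6 arrays. It was 0.100 between S100a8 and S100a9, against a median of 0.612 from S100a8 to all genes tested. The measure is not scaled by each gene's spread, so genes that vary little over the arrays lie nearer to each other by it. S100a8 and S100a9 are direct neighbours on chromosome 3 in the RefSeq order. Other genes came as near, 5 to S100a8 and 3 to S100a9. Nearest to the mean of both was Camp, which encodes the antimicrobial peptide CRAMP of specific granules, at 0.0708. Camp signal was 122.8, 169.6 and 79.2 in phd3 null and 203.9, 177.3 and 165.1 in wild-type samples, and its difference was -0.55 (SE 0.35, limma adjusted p = 0.9996). Gmeb2, Timmdc1, Zbtb43 and Dnajb14 followed, at 0.0964 to 0.115. Among the members, S100a6 was the next nearest to S100a8, at 0.180.

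S100a6 encodes calcyclin, an S100 protein first known for its link to the cell cycle. Its signal was 2894, 2946 and 1375 in phd3 null and 3888, 2642 and 2279 in wild-type samples. The array of phd3 null sample 3 was lowest and that of wild-type sample 1 highest, with the other 4 in between. Pair differences were -0.42, 0.16 and -0.72, and the fitted one was -0.33 (SE 0.41, limma adjusted p = 0.9996). Without phd3 null sample 3 it was 0.03.

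S100a4 encodes a protein that binds non-muscle myosin and promotes cell motility. Its signal was 3419, 3218 and 1940 in phd3 null and 1833, 4261 and 2410 in wild-type samples, with wild-type arrays both highest and lowest. The means, 2859 ± 802 and 2835 ± 1268 (SD, n = 3), nearly coincided. Pair 1 differed by 0.89, the most positive pair difference of any member, while pairs 2 and 3 differed by -0.40 and -0.31. The fitted difference was 0.06 (SE 0.42), and leaving out 1 array turned it to -0.21 (wild-type sample 1), -0.09 (phd3 null sample 1), -0.05 (phd3 null sample 2) or -0.01 (wild-type sample 3).

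S100a10, the partner of annexin A2, does not bind calcium itself and was read by 3 probe sets that did not behave alike. The brightest (1456642_x_at, of a class whose probes may also bind other transcripts) gave 462.7, 442.7 and 524 in phd3 null and 377.8, 640.6 and 663.9 in wild-type samples. Its phd3 null values lay inside the wild-type range, and its difference was -0.19 (SE 0.33, limma adjusted p = 0.9996). The second (1416762_at) gave 172.1, 338.9 and 571.9 in phd3 null and 239.3, 617.7 and 548 in wild-type samples. Both arrays of replicate 1 were its lowest. The difference was -0.41 for this probe set and -0.48 for the third (1439348_at), which passed the dim filter at means of 72.6 and 108.3. With every probe set tested on its own, 0 of the 12 member probe sets that passed the filter was called between genotypes in limma.

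Among the annexins, Anxa1 and Anxa2 were higher in phd3 null in pairs 1 and 2 and lower in pair 3. Anxa2 signal was 4563, 5186 and 1361 in phd3 null and 3643, 3444 and 2105 in wild-type samples. Its pair differences were 0.32, 0.59 and -0.62, and the fitted one was 0.10 (SE 0.53, 95% interval -1.08 to 1.28, limma adjusted p = 0.9996), the widest interval of the 9 members. A second probe set of Anxa2 (1437692_x_at) is of the class whose probes may also bind other transcripts. It gave 431.5, 239.6 and 112.3 against 180.4, 76.1 and 223.4. Its pair differences were 1.19, 1.47 and -0.90, so it shared the order of signs. The third, at means of 4.37 and 3.37, did not pass the filter. Without phd3 null sample 3 the fitted difference of Anxa2 was 0.70, and without phd3 null sample 2 it was -0.25.

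Anxa1 signal was 1019, 1580 and 1392 in phd3 null and 959.1, 1283 and 2178 in wild-type samples, and wild-type sample 3 stood highest. Its pair differences were 0.09, 0.30 and -0.64 and the fitted one was -0.09 (SE 0.38). Without wild-type sample 3 it was 0.24. A dim second probe set of Anxa1, at means of 31.8 and 49.6, did not pass the filter.

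Anxa3 encodes an annexin found on granule membranes of neutrophils, and it gave 311.4, 202.1 and 121.1 in phd3 null and 376.9, 193.1 and 163.3 in wild-type samples. In both genotypes replicate 1 was highest and replicate 3 lowest. The difference was -0.20 (SE 0.43), and it turned to 0.14 when wild-type sample 1 was left out and to 0.12 when phd3 null sample 3 was. Anxa5 gave 1131, 1114 and 613.2 in phd3 null and 1087, 1235 and 545.3 in wild-type samples. Its group means were 953 ± 294 and 956 ± 363 (SD, n = 3), and its difference was 0.02 (SE 0.41, 95% interval -0.90 to 0.95). With the block the interval was -0.42 to 0.47.

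**Figure D2:**
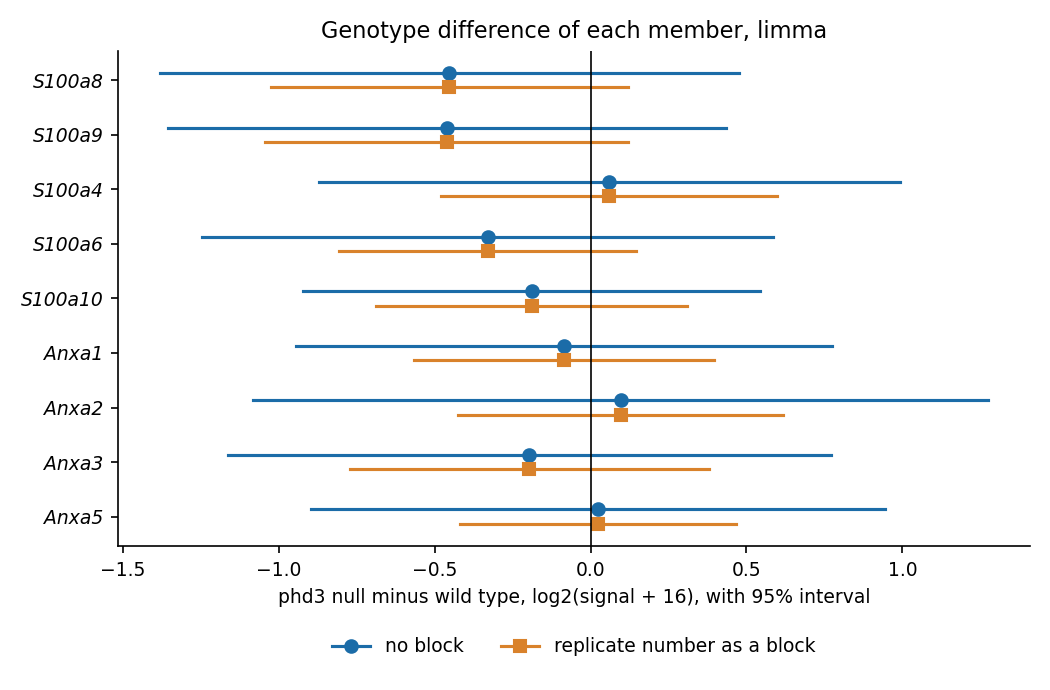
Fitted difference (phd3 null minus wild type, log2(signal + 16)) of each measured member with its 95% interval from limma, without a block (blue circles) and with the replicate number as a block (orange squares), n = 3 arrays per genotype. Every interval spans 0, from -1.38 at the lower end for S100a8 to 1.28 at the upper end for Anxa2.

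The pairs did not give the same picture for the members as a group. In pair 1 the members' median difference was 0.06 and 4 of 9 were lower in phd3 null, where 50.1% of all genes were. In pair 2 it was 0.01, with 4 of 9 lower, where 50.4% of all genes were. In pair 3 it was -0.62 and 8 of 9 were lower, where 50.3% of all genes were. Anxa5, at 0.16, was the exception in pair 3. Of the 1096 brightest genes, 67.8% were lower in phd3 null in pair 3, with a median of -0.18, and 65.6% and 42.2% were in pairs 1 and 2. With quantile normalization, 8 of 9 members were again lower in pair 3, at a median of -0.43. Pair 3 holds 1 array per genotype, so this difference has no replicate of its own. Summed monocyte markers differed little within the pair, 5962 in phd3 null against 6713 in wild type, while the neutrophil markers were at 4534 against 6954. The erythroid markers were at 6831 against 4778, mostly through Alas2, at 6348.5 against 4110.8. The others, Slc4a1 and Hba-a1, were lower in phd3 null, at 441 against 584.5 and 41.5 against 82.4. The part of these cells in the pair 3 differences was not tested.

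**Figure D3:**
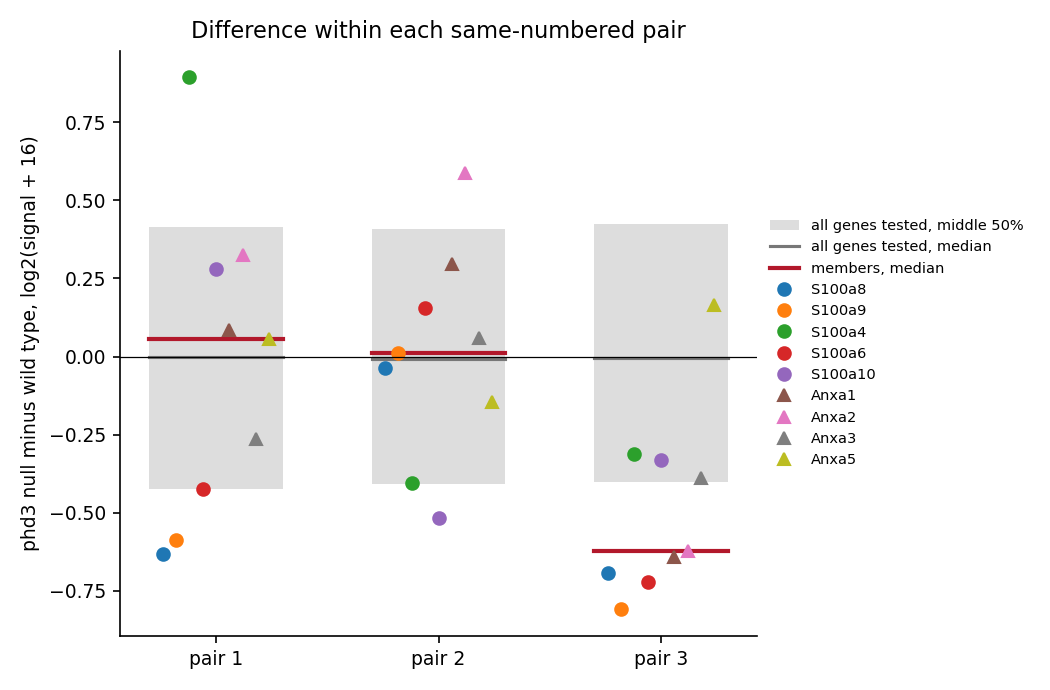
Difference within each same-numbered pair (phd3 null minus wild type, log2(signal + 16)) for the 5 S100 genes (circles) and 4 annexin genes (triangles), over the median and the middle 50% of all 10960 genes tested. The members' median (red line) lies at 0.06, 0.01 and -0.62 in pairs 1 to 3.

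For most members, though not for S100a8 and S100a9, most of the variation ran with the replicate number. The replicate number has more levels than genotype, so it takes a larger share even of unstructured variation. In each member's sum of squares over the 6 arrays, the replicate number took a median of 71.0%, and genotype 3.70%, against medians of 53.1% and 8.94% over all genes tested. The share of the replicate number was 97.9% for Anxa5, 92.9% for Anxa3, 84.0% for Anxa2, 72.6% for Anxa1 and 71.0% for S100a6. Genotype took its greatest shares in S100a9, 48.4%, and S100a8, 36.9%, where the replicate number took 24.4% and 47.3%. These shares describe 6 arrays, with 2 per number.

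In limma's F-test among the 3 replicate numbers, with genotype in the fit, 2 of 9 members passed at an adjusted p under 0.05, where 11.1% of all genes did. They were Anxa5 (adjusted p = 0.0239) and Anxa2 (adjusted p = 0.0104), both lowest on the 2 arrays of replicate 3. With unadjusted p under 0.05 there were 5 of 9, against 22.7% of all genes, the others being S100a6, Anxa1 and Anxa3. S100a8, S100a9, S100a4 and S100a10 had adjusted p from 0.255 to 0.743. The direction differed among members. S100a8, S100a6, Anxa2, Anxa3 and Anxa5 had their lowest signal in each genotype on replicate 3, whereas Anxa1 in each genotype, and the second probe set of S100a10 in each genotype, were lowest on replicate 1. That probe set also passed the F-test when every probe set was tested on its own (limma adjusted p = 0.0187). The sums of monocyte markers, too, were lowest on replicate 3. So were the neutrophil markers Csf3r, Cxcr2, Itgam and Trem1 in each genotype. Of the other neutrophil markers, Il1r2 was highest there in each genotype, and Mmp9 and Fcgr3 were lowest there in phd3 null only. In the F-test 5 of 7 neutrophil and 5 of 6 monocyte markers passed, where 11.1% of all genes did. The part of these cells in the members' pattern was not tested. The calls rested on few arrays. With replicate 3 left out, 0 of 9 members passed between replicates 1 and 2, where 0.911% of all genes did, and with a prior variance that had no trend 0 of 9 passed and 0 of 10960 genes did. When single arrays were left out the count was 1 for phd3 null sample 3 (Anxa1 passing), 1 for wild-type sample 1 and 1 for wild-type sample 3 (Anxa2 passing), 5 for wild-type sample 2 and 6 for phd3 null sample 2. Of all genes, 7.84%, 10.3%, 11.6%, 14.1% and 15.4% passed in these 5 cases, in the same order.

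**Figure D4:**
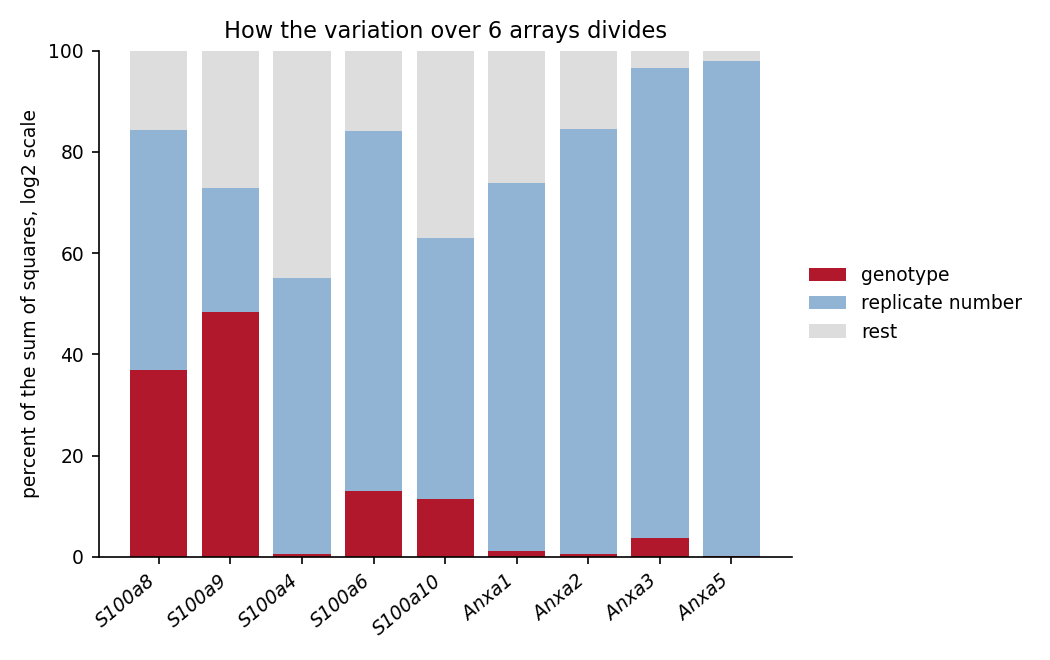
Share of each member's sum of squares (percent, log2(signal + 16), 6 arrays) that ran with genotype (red), with the replicate number (blue) and with neither (grey). The blue share reaches 97.9% in Anxa5 and 92.9% in Anxa3, and the red share is greatest in S100a9, at 48.4%.

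Other genes of the 2 families gave a similar count. Of 19 listed, 15 were named on the array and 8 passed the dim filter, 4 higher and 4 lower in phd3 null with a median of -0.08. In limma 0 of 8 passed, where 0% of all genes did, and 1 of 8 had an unadjusted p under 0.05, where 1.74% did. In every pair 2 of 8 were lower, where 13.1% of all genes were, and 0 of 8 higher, where 12.6% were. S100a1, best known as a calcium sensor of muscle, was lower in 3 of 3 pairs, at 62.5, 23.3 and 76.1 in phd3 null against 121.1, 112 and 153.4 in wild-type samples. These groups did not overlap, as for 3.02% of all genes in that direction. Its difference was -1.13 (SE 0.42, unadjusted p = 0.0247, limma adjusted p = 0.9996), on signals near the array medians of 49.4 to 64.2. S100b and S100a5, next in order of p, differed by -0.43 (SE 0.49) and 0.49 (SE 0.64), and S100b too was lower in every pair. Anxa4 was the 1 gene of the 8 that passed the F-test among replicate numbers (adjusted p = 0.00587), a share near the 11.1% of all genes. Its signal was 503.6, 367.5 and 164.4 in phd3 null and 331, 412.7 and 104.3 in wild-type samples. Its arrays of replicate 3 were thus lowest, as for Anxa2 and Anxa5.

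Of 11 receptors and partners of these proteins 7 were tested, 2 higher and 5 lower in phd3 null, and 0 of 7 passed in limma, where 0% of all genes did without the block and 0.0182% with it. At an unadjusted p under 0.05 there was 1 of 7 without the block, where 1.74% of all genes were, and 4 of 7 with it (Cd36, Pla2g4a, Tlr4 and Ahnak), where 5.62% were. In every pair 3 of 7 were lower, where 13.1% of all genes were, and 2 of 7 higher, where 12.6% were. Tlr4, a receptor of S100A8 and S100A9, gave 249.9, 168.8 and 112.8 in phd3 null and 324.8, 302.6 and 203.7 in wild-type samples, lower in 3 of 3 pairs. Its difference was -0.64 (SE 0.37, limma adjusted p = 0.9996). Cd36, which binds their complex with arachidonic acid, differed by -1.71 (SE 0.57) and had the smallest p of the list, with a limma adjusted p of 0.0536 with the block. Over the 6 fits with the block limma's adjusted p ran from 2.89e-09, with both arrays of pair 3 left out and 1 residual degree of freedom, to 0.283 with quantile normalization, and Cd36 passed in 2 of them, the other being a pseudocount of 64 (adjusted p = 0.0203). Pla2g4a, the cytosolic phospholipase A2 that annexin A1 inhibits, gave 163.5, 189 and 15.2 against 305.7, 319.2 and 131.4. It was lower in 3 of 3 pairs, with a difference of -1.26 (SE 0.68, limma adjusted p = 0.9996). Ahnak, a large scaffold that binds annexin A2 with S100A10, was higher in 3 of 3 pairs, at 1123, 1513 and 1625 against 495.6, 1071 and 1298, with a difference of 0.66 (SE 0.41, limma adjusted p = 0.9996). Fpr2, the annexin A1 receptor, gave 2676, 2805 and 344.1 against 3683, 1356 and 882.8. Its pair differences of -0.46, 1.04 and -1.32 did not share a sign, and it passed the F-test among replicate numbers (limma adjusted p = 0.00111). In that test 5 of 7 passed, where 11.1% of all genes did, the others being Cd36, Pla2g4a, Plgrkt, a plasminogen receptor gene, and Bsg, a receptor gene for S100A9.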

How the data were processed

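The deposited table holds, per the submitters' processing notes, linear signal intensities that the authors computed with MAS5 (version not given in the sources used here), 1 array per mouse. In these values the mean after trimming 2% of probe sets at each end was 100 on every array. No detection calls were used, and the number of arrays limits the precision. Control probe sets (64 of 45101) were left out. Of the others 34945 had 1 symbol in the platform annotation, 932 several, and 9160 were unnamed here. The 9 measured members all matched RefSeq (GRCm38.p6) by gene ID under the same symbol, and promoter windows came from the same assembly.

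For each gene the probe set of highest mean log2(signal + 16) was taken. Genes were tested where this mean reached 5.90, the median over probe sets other than controls. Genotypes were compared with limma (version 3.58.1, R version 4.3.3), by two-sided moderated tests with no block and with a prior variance that follows the signal level. The F-test among replicate numbers came from the fit with genotype and number. Same-numbered samples share a code in the source labels, and for that reason same-numbered arrays were treated as pairs. Their deviations from the group means correlated at 0.292, 0.151 and 0.474 for pairs 1 to 3. Deviations cancel out within a group and both replicate 3 arrays stood apart. These correlations therefore cannot decide how replicates 1 and 2 pair. For phd3 null sample 2 the correlation with wild-type sample 1 was higher, at 0.177.

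The members and the lists were chosen with earlier results of these data known. The text names every member, the 5 genes nearest in pattern to S100a8 and S100a9, Egln3, and the 3 genes of smallest p among the other family genes and among the receptors and partners. Marker lists are given as sums. Every marker gene named was picked after its values were seen, as were Fpr2, Ahnak, Plgrkt, Bsg, Anxa4, Xist and Eif2s3y. Alternatives were the block, the pseudocount, the dim filter, quantile normalization, the use of probe sets, the trend, array weights and left-out arrays.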

Additional observations from a re-analysis of the deposited data

How the results depend on the processing

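No member passed between genotypes in limma under any of 21 alternatives (adjusted p from 0.864 to 1.00), and the replicate block changed no member's call. Over all genes, 0 were called without the block and 2 with the replicate block (Egln3 and Ptgr1). With the block there were 2 at a pseudocount of 1 and 4 at a pseudocount of 64, Cd36 and Xist besides. Quantile normalization with the block gave 1, and every probe set with the block gave 2. Without both arrays of pair 3 there was 1 call, and 44 with the block, Xist and Eif2s3y among them. Levels of Xist and Eif2s3y depend on the sex of a mouse. Sex was not in any fit, and its part in the results was not tested. Leaving out 1 array gave 0 to 1 calls over all genes. S100a8, S100a9 and S100a10 kept the sign of their differences under all 21, at -0.65 to -0.21, -0.64 to -0.26 and -0.44 to -0.05 when 1 array was left out. The other members changed sign without 1 array at least once, over ranges of -0.21 to 0.40 for S100a4, -0.52 to 0.029 for S100a6, -0.35 to 0.24 for Anxa1, -0.25 to 0.70 for Anxa2, -0.50 to 0.14 for Anxa3 and -0.33 to 0.31 for Anxa5. Values also moved by over 1.5 times with quantile normalization (S100a8 to -0.29, S100a9 to -0.28, S100a6 to -0.20, S100a4 to 0.18, Anxa2 to 0.34, Anxa5 to 0.11), with array quality weights (S100a8 to -0.30, S100a9 to -0.29, S100a6 to -0.13, Anxa2 to 0.39, Anxa3 to -0.09), with the mean of probe sets (S100a10 to -0.36, Anxa1 to -0.19, Anxa2 to 0.25) and without pair 3 (S100a9 to -0.29, S100a6 to -0.13, S100a10 to -0.12, S100a4 to 0.25, Anxa2 to 0.46, Anxa3 to -0.10). Anxa1 also turned to 0.0081 with quantile normalization, with and without the block, to 0.058 with array quality weights, and to 0.19 without pair 3, with and without the block. Anxa5 turned to -0.045 without pair 3, with and without the block. The SE of S100a8 and S100a9 also depended on the setting. It was lowest with quantile normalization and the block, at 0.24 for each. Without the dim filter it was highest, at 1.02 for each. Of members differing among replicate numbers, 1 was called with quantile normalization (Anxa2), 0 with no trend and 0 without pair 3, and 1 to 6 when 1 array was left out. Over all genes that F-test called 1218, 0 with no trend, 100 without pair 3 and 860 to 1695 when 1 array was left out. Leaving out arrays in the F-test and the pair differences after quantile normalization were chosen after seeing the data. The cause of these changes was not tested. The number of arrays limits what could be resolved. S100a8 and S100a9 lie at the top of the array's range, and the effect of this on their differences was not tested.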
